A study of Mus musculus with 4 samples.

Results

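The splicing factor genes are the 72 protein-coding mouse genes, of 21951 in the annotation, whose symbols begin with Srsf, Hnrnp, Sf3a, Sf3b, Snrp, U2af, Ptbp, Mbnl, Celf, Rbfox or Esrp. They were chosen by symbol alone, and fall into 11 families. Their RNA was measured in primary tumors of 4T1 cells, a line of mammary carcinoma from the same strain, grown in the mammary fat pad of female *Foxp3*+EGFP Balb/c mice that were 8 weeks old. The mice received 100 pmoles/h of a Control splice modulating oligomer (Control SMO) or of one directed at the long form of the prolactin receptor (LFPRLR SMO) for 12 days. An SMO is an antisense oligomer that pairs with a pre-mRNA and changes how that pre-mRNA is spliced. RNA of 6 mice was pooled into 1 library per treatment for whole tumor, and the tumor Treg libraries were made from cells sorted for Foxp3-EGFP from 6 further mice per treatment. With 1 library per group there is no replicate, so no SD or p-value can be given and every ratio compares 2 libraries.

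Splicing removes introns from pre-mRNA in the spliceosome, a machine built on small nuclear RNAs with their proteins. The Snrp, Sf3a, Sf3b and U2af genes encode proteins of this core, which bind the 5′ splice site, the branch point and the 3′ splice site. The other families encode proteins that bind pre-mRNA and raise or lower the use of nearby exons: SR proteins (Srsf), hnRNP proteins, and the Ptbp, Mbnl, Celf, Rbfox and Esrp regulators, several of which are typical of neurons, muscle or epithelium. Many of these genes are themselves alternatively spliced, and some hold "poison" exons that send the mRNA to nonsense-mediated decay, through which the proteins limit their own level.

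Alternative exons of 5 of these genes carry the results on splicing below, and their sequences, from GENCODE M21 on GRCm38, are given 5′ to 3′ along the gene. The 34-base exons of *Ptbp1* (chr10:79862014-79862047, plus strand) and *Ptbp2* (chr3:119724612-119724645, minus strand) lie within the coding sequence, and as their length is not a multiple of 3, skipping shifts the reading frame. They were identical at 26 of 34 positions (76.5%). Capitals in the second sequence of a pair mark the bases that differ from the first.
Ptbp1, 34 bases: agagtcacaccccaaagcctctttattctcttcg
Ptbp2, 34 bases: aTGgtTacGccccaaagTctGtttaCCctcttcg
The 54-base coding exons of *Mbnl1* (chr3:60614683-60614736, plus strand) and *Mbnl2* (chr14:120395712-120395765, plus strand), which Mbnl proteins are known to act on, were identical at 46 of 54 positions (85.2%).
Mbnl1, 54 bases: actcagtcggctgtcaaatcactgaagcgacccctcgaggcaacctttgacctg
Mbnl2, 54 bases: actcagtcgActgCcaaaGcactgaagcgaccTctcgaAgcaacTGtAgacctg
*U2af1* has a pair of 67-base coding exons that normally replace each other, the upstream at chr17:31652502-31652568 and the downstream at chr17:31651646-31651712 (minus strand), which shared 44 of 67 bases (65.7%).
U2af1 upstream exon, 67 bases: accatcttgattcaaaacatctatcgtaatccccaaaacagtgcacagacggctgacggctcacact
U2af1 downstream exon, 67 bases: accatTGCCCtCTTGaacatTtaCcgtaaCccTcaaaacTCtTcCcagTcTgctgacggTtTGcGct

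In whole tumor, 64 of the 72 genes had an assembled transcript under Control SMO and 63 under LFPRLR SMO, the latter all among the former. Their summed FPKM (fragment counts per length of transcript and size of library, added over the assembled transcripts of a gene) ran from 2.38 to 111 under Control SMO, with a median of 15.6, and from 2.27 to 105 under LFPRLR SMO, with a median of 13.9. The median over all coding genes of at least 1 FPKM was 5.40 and 5.45. *U2af1l4*, a relative of *U2af1*, was at 2.38 FPKM under Control SMO from 1 transcript of 896 bases and was not listed under LFPRLR SMO. *Srsf12*, *Snrpn*, *Celf3*, *Celf5*, *Celf6*, *Rbfox1*, *Rbfox3* and *Esrp2* had no assigned transcript in either library. Transcripts within 20% of the length of *Rbfox1* were listed down to 0.268 FPKM under Control SMO and 0.320 under LFPRLR SMO, so a low level of these genes would not be seen. With all annotated transcripts used for the assignment in place of the basic GENCODE set, *Rbfox3* was not listed under Control SMO and was at 2.21 FPKM under LFPRLR SMO. At these depths, an FPKM of 1 was equal to a mean read depth of 1.88 under Control SMO and 1.75 under LFPRLR SMO.

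A gene that Cufflinks assembled in several pieces has its FPKM counted for each piece. The exon-weighted value was therefore given beside it, in which each transcript's FPKM counts in proportion to its exon bases within the gene, relative to the longest transcript annotated there. By this measure the splicing factor genes of at least 1 had a median of 9.90 under Control SMO and 8.45 under LFPRLR SMO, against 3.19 and 2.90 over all coding genes.

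Most splicing factor genes were lower under LFPRLR SMO than under Control SMO, by a small amount. The median ratio, as log2 of LFPRLR SMO over Control SMO with 0.1 added to both, was -0.27 for FPKM over 64 genes and -0.25 for the exon-weighted value over 63 genes. Over all coding genes these medians were -0.11 (n = 9959) and -0.19 (n = 8288). The ratio was below 0 for 45 of 64 splicing factor genes by FPKM and for 48 of 63 by the exon-weighted value, against 55.6% and 68.7% of coding genes. Few members passed a factor of 2. By FPKM, 3 of 64 were higher (4.69%, against a background of 16.3% of coding genes) and 11 of 64 were lower (17.2%, background 17.4%). By the exon-weighted value, 0 of 63 were higher (background 3.04%) and 2 of 63 were lower (3.17%, background 8.41%). By both measures together, 2 of 63 were lower (background 6.58%) and 0 were higher (background 2.51%). The 2 were *Snrpf* and *U2af1l4*, which enters at 0 under LFPRLR SMO, so no fold is given for it. No share past the factor was above its background. On the TPM scale, where each log2 ratio here is higher by 4.55, the same factor gives 63 higher and 0 lower. With TPM over transcripts of at least 300 bases only, the shift is 0.15, and 4 are higher and 9 lower.

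**Figure D1:**
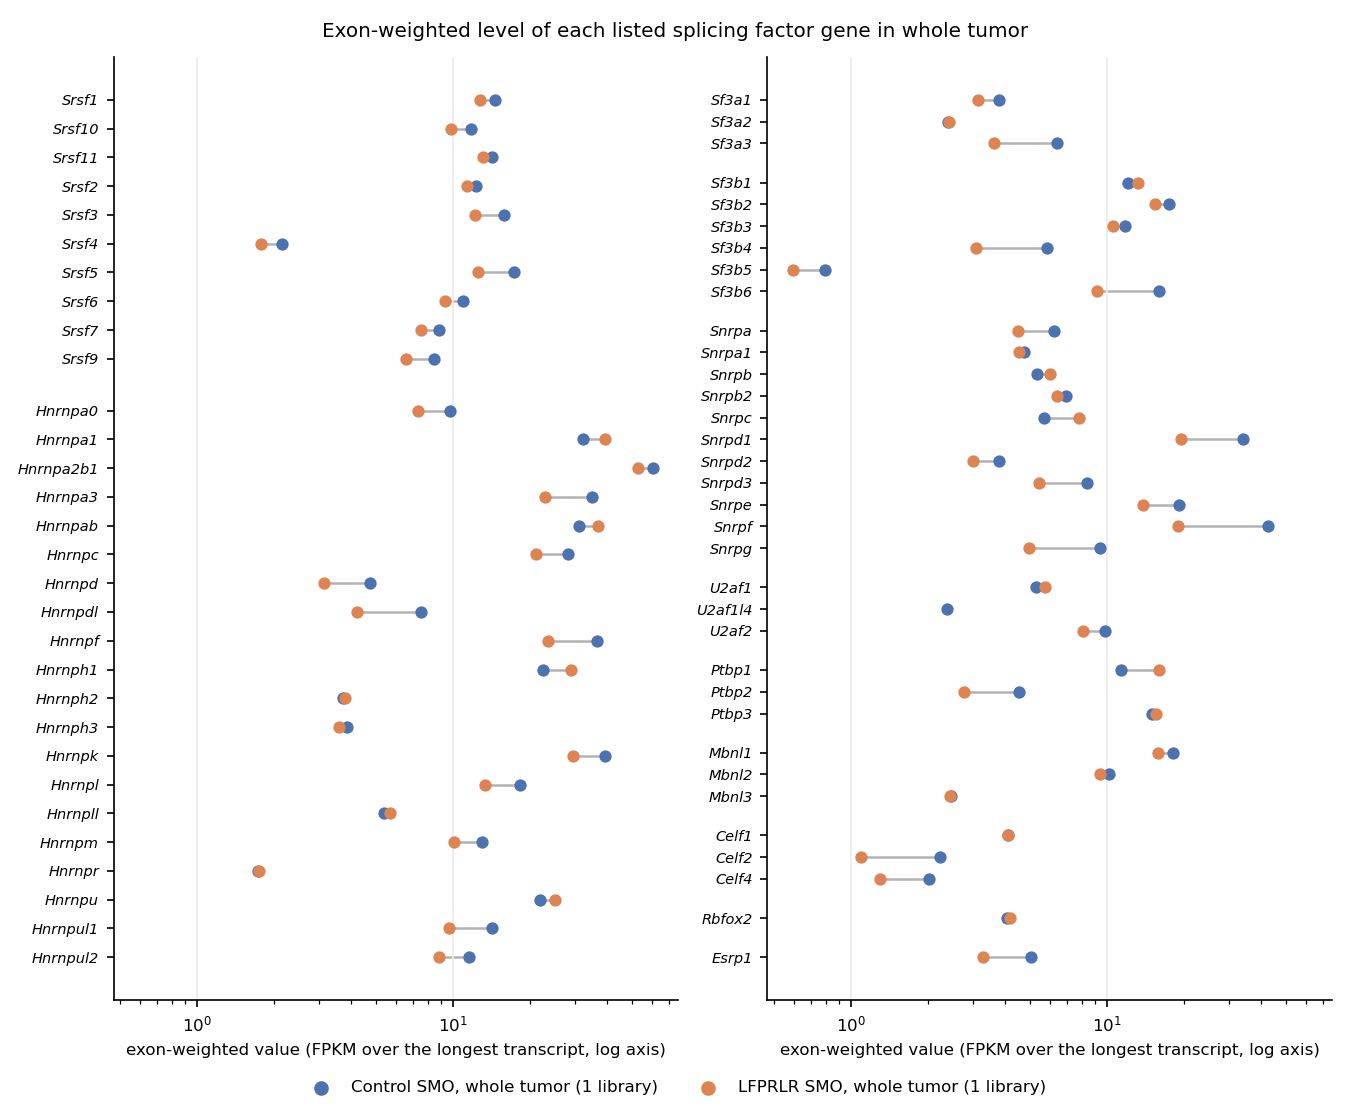
Exon-weighted value (horizontal log axis, in FPKM over the longest transcript) of the 64 splicing factor genes listed in whole tumor, by family, under Control SMO (blue) and LFPRLR SMO (orange), 1 library of 6 pooled mice each. Most orange points lie left of the blue, and *Snrpf*, at 42.6 and 19.0, and *Celf2*, at 2.24 and 1.10, have the widest gaps.

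The Snrp genes held the only member listed in both libraries that was past a factor of 2 by both measures. *Snrpf*, on chromosome 10 from 93583029 to 93589706 on the minus strand, encodes the F protein of the Sm ring that encircles the small nuclear RNAs. It had 1 transcript in each library with the same 3 introns, of 385 bases at 95.2 FPKM under Control SMO and of 388 bases at 42.0 FPKM under LFPRLR SMO. The exon-weighted values were 42.6 and 19.0, and the log2 ratio was -1.18 by FPKM and -1.16 by the exon-weighted value. Of the 7 listed genes of the Sm ring, 6 were lower under LFPRLR SMO by both measures. Of coding genes 55.6% were lower by FPKM and 68.7% by the exon-weighted value. *Snrpd1* was at 52.2 and 32.1 FPKM and *Snrpd3* at 45.1 and 21.1 FPKM, under Control SMO and LFPRLR SMO in turn, and their log2 ratios by the exon-weighted value were -0.80 and -0.61. *Snrpg*, at 22.9 and 13.6 FPKM, had a ratio of -0.90 by the exon-weighted value, and *Snrpe*, at 39.5 and 25.4 FPKM, of -0.47. *Snrpb* was the exception, at 6.33 and 6.41 FPKM.

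The median ratio of the Sm ring was -0.61 by the exon-weighted value. Most of these genes are short. Coding genes whose longest transcript has up to 1500 bases had a median ratio of -0.40, with 758 of 981 below 0. For longer ones the median was -0.15 (n = 7483), so that short genes were lower in general. The part of gene length in the Sm ratios was not tested. Several Sm genes have processed pseudogenes, and how reads that match both were placed is not given in the sources used here. *Snrnp70*, a U1 protein whose symbol is outside the rule, was at 22.6 and 13.8 by the exon-weighted value. The 4 Snrp genes for proteins particular to U1 or U2 had a median of -0.09, with 3 below 0 and *Snrpa* at -0.47. Among them *Snrpc*, the U1 protein that helps hold the 5′ splice site, was at 10.4 FPKM in 1 transcript under Control SMO and 22 in 2 transcripts under LFPRLR SMO. Its exon-weighted values were 5.69 and 7.79, a log2 ratio of 0.45 against 1.08 by FPKM.

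The SF3a and SF3b genes encode the U2 particle's grip on the branch point. By the exon-weighted value 7 of the 9 were lower, against 68.7% of coding genes, with a median ratio of -0.26. The 9 include *Sf3b5*, at 0.792 and 0.595, while the coding genes counted here are those of at least 1. *Sf3b1*, the largest subunit, was at 78.8 FPKM under Control SMO and 50.1 under LFPRLR SMO, but at 12.2 and 13.3 by the exon-weighted value, so the measures differ in direction. *Sf3b6*, which contacts the branch point, was at 24.5 and 21.0 FPKM and at 16 and 9.19 by the exon-weighted value. *Sf3b4* had the largest difference of the group, at 9.50 and 3.52 FPKM and 5.84 and 3.10 by the exon-weighted value, a ratio of -1.41 and -0.89. *Sf3a3* followed by the exon-weighted value, at 6.39 and 3.64, while *Sf3a1*, at 7.15 and 9.51 FPKM, and *Sf3a2*, at 6.15 and 8.49 FPKM, were higher by FPKM and had exon-weighted ratios of -0.26 and 0.02.

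The U2af genes encode the factor that reads the 3′ splice site. *U2af2*, the large subunit, was at 21.6 FPKM in 3 transcripts under Control SMO and 8.53 in 2 transcripts under LFPRLR SMO, while its exon-weighted values were 9.90 and 8.08. *U2af1*, the small subunit, was at 8.02 and 5.16 FPKM and at 5.29 and 5.72 by the exon-weighted value. The ratio of *U2af2* was -1.33 by FPKM and -0.29 by the exon-weighted value, and that of *U2af1* was -0.63 and 0.11.

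Of the 10 listed SR protein genes, all 10 were lower by the exon-weighted value and 9 by FPKM, against 68.7% and 55.6% of coding genes. Their median ratios were -0.25 and -0.35, against -0.19 and -0.11 over coding genes. The differences were small by the exon-weighted value, from -0.12 for *Srsf2* to -0.46 for *Srsf5*. *Srsf5* had the highest FPKM of the family, 71.0 under Control SMO and 46.3 under LFPRLR SMO, and was at 17.4 and 12.6 by the exon-weighted value. *Srsf3*, which limits its own level through a poison exon, was at 42.7 FPKM in 4 transcripts under Control SMO and 15.1 FPKM in 2 transcripts under LFPRLR SMO. Its exon-weighted values were 15.9 and 12.2, so that a ratio of -1.49 by FPKM became -0.38. *Srsf11* was the member above 0 by FPKM, at 14.5 and 21.3, with exon-weighted values of 14.3 and 13.1. With the wider assignment its FPKM was 29.3 and 21.3, so that the direction turned.

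The 20 hnRNP genes were all listed in both libraries. *Hnrnpc*, which packages nascent RNA, had the highest FPKM of all splicing factor genes under Control SMO, at 111, against 59.3 under LFPRLR SMO, from 7 transcripts in each, and was at 28.2 and 21.1 by the exon-weighted value. Under LFPRLR SMO it was *Hnrnpu*, a nuclear scaffold protein, at 57.7 and 105 FPKM, with exon-weighted values of 22.0 and 25.0. *Hnrnpa2b1* was highest by the exon-weighted value, at 60.3 and 52.9. Its FPKM was 49.7 and 54.0, but 49.7 and 101 with this wider assignment. *Hnrnpab* was at 75.4 and 87.1 FPKM and at 31.0 and 37.0 by the exon-weighted value, higher under LFPRLR SMO by both. Of the 20 genes, 11 were lower by FPKM and 13 by the exon-weighted value, against 55.6% and 68.7% of coding genes.

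*Hnrnpa1*, a repressor of many exons, was at 35.8 FPKM in 1 transcript under Control SMO and 78.0 in 2 transcripts under LFPRLR SMO, a ratio of 1.12, and its exon-weighted values of 32.2 and 39.4 gave 0.29. *Hnrnph3* was at 5.67 and 13.8 FPKM but at 3.87 and 3.58 by the exon-weighted value, so its direction was not the same by both measures. Lower by a factor of 2 by FPKM were *Hnrnpl*, at 89.2 and 33.3, *Hnrnpa0*, at 19.9 and 7.38, and *Hnrnpul2*, at 47.5 and 21.7. All of these had exon-weighted ratios between -0.38 and -0.45. *Hnrnpdl* went the other way, at 8.12 and 10.7 FPKM but at 7.48 and 4.21 by the exon-weighted value, the lowest exon-weighted ratio of the family at -0.82. Reads of *Hnrnpa1* can also match its processed pseudogenes, and how they were placed is not given in the sources used here.

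Among the regulators with a narrower range of tissues, *Ptbp1*, the form of most dividing cells, was at 13.2 FPKM under Control SMO and 18.7 under LFPRLR SMO, and at 11.4 and 16 by the exon-weighted value, with the highest exon-weighted ratio of the listed splicing factor genes at 0.49. *Ptbp2*, the form best known from neurons, was at 9.94 and 13.4 FPKM but at 4.56 and 2.78 by the exon-weighted value. *Ptbp3* was at 15.4 and 16.1 FPKM, with an exon-weighted ratio of 0.06. *Mbnl1* was at 20.0 and 17.4 FPKM (20.0 and 70.1 with the wider assignment), *Mbnl2* at 14.1 and 9.55 (14.1 and 17.6), and *Mbnl3* at 2.70 and 2.27, and all had exon-weighted ratios between -0.18 and -0.02. For *Mbnl3* only 18.8% of the exon-weighted value under LFPRLR SMO came from transcripts assigned to it. *Rbfox2*, the Rbfox gene expressed beyond neurons, was at 13.5 and 15.5 FPKM, with an exon-weighted ratio of 0.04.

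*Celf2*, an antagonist of Mbnl proteins, had the largest FPKM ratio of the genes listed in both libraries, at 33.2 under Control SMO and 4.59 under LFPRLR SMO, a ratio of -2.83. Of the 4 transcripts under Control SMO, 2 were fragments of 277 bases at 14.4 FPKM each, and the exon-weighted values were 2.24 and 1.10, a ratio of -0.97, just under the factor. *Celf4* was at 11.2 and 2.31 FPKM (11.2 and 3.83 with the wider assignment), and at 2.02 and 1.30 by the exon-weighted value. *Celf1* was at 7.33 and 8.72 FPKM and at 4.11 in both libraries by the exon-weighted value. *Esrp1*, the epithelial splicing regulator, was at 7.96 and 5.70 FPKM and at 5.08 and 3.29 by the exon-weighted value, and *Esrp2* was not listed. In a tumor of many cell types, fewer cells of a type and less RNA per cell cannot be told apart for such genes.

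Levels of cell type markers also differed between the libraries. The 10 monocyte and macrophage markers were all listed, with a median exon-weighted ratio of -0.59 and a summed FPKM of 564 under Control SMO and 385 under LFPRLR SMO. The 10 markers of 4T1 epithelium had a median of -0.17 and a summed FPKM of 318 and 326, with *Epcam* at 47.7 and 53.3. By the exon-weighted value their sum was 270 and 242 and *Epcam* was at 40.6 and 28.6. The 5 fibroblast markers had a median exon-weighted ratio of 0.22, with a summed exon-weighted value of 175 and 207. The median was 0.39 over the 3 skeletal muscle markers and -0.29 over the 4 endothelial markers with a ratio. By FPKM the endothelial median was 0.51, with a sum of 20.5 and 26.8, so the measures differ in direction. Of 10 T cell markers none was listed. Of 5 Treg markers *Ikzf2* alone was listed, at 7.74 and 5.11 FPKM and at 0.764 and 0.687 by the exon-weighted value. *Foxp3* was not. The part of these markers in the splicing factor ratios was not tested.

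**Figure D2:**
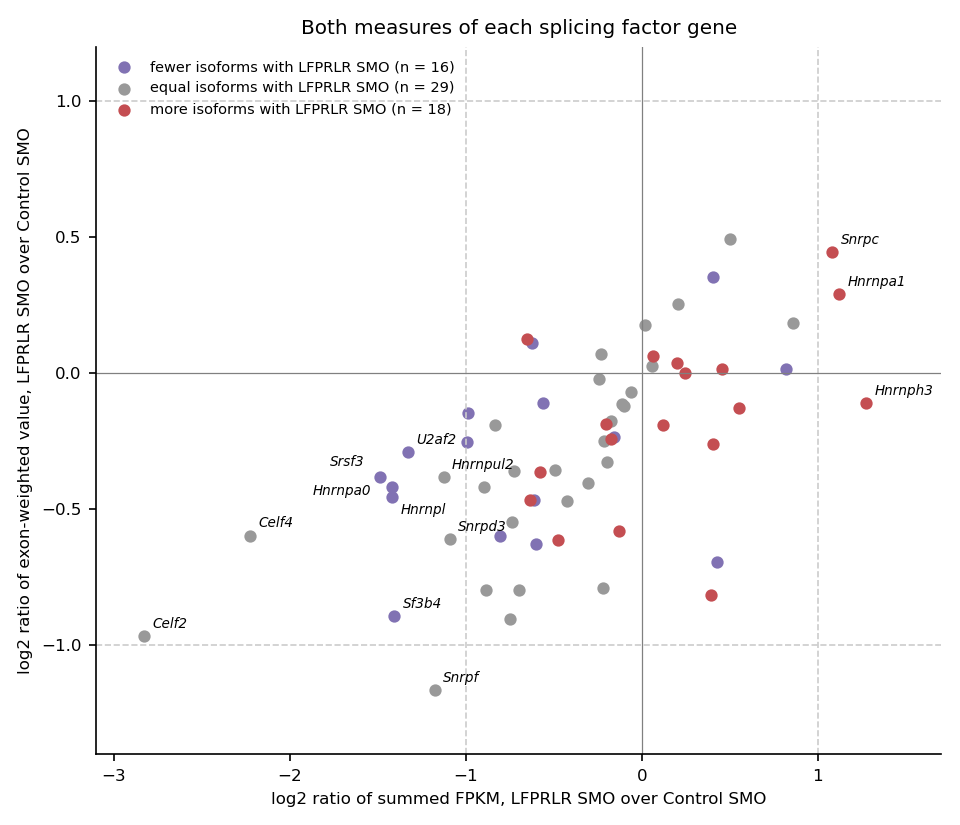
Log2 ratio of LFPRLR SMO over Control SMO in whole tumor by summed FPKM (horizontal axis) and by exon-weighted value (vertical axis) for the 63 splicing factor genes listed in both libraries, coloured by whether more, fewer or the same number of isoforms were assembled under LFPRLR SMO. Dashed lines mark a factor of 2. Of the named genes past it on the horizontal axis, only *Snrpf* is past it on the vertical axis.

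The number of assembled isoforms per splicing factor gene was alike in both libraries. There were 146 transcripts under Control SMO and 146 under LFPRLR SMO, a mean of 2.30 and 2.32 per gene over the 63 genes listed in both, where coding genes had 2.0 and 2.14 (n = 8464). With LFPRLR SMO, 18 genes had more isoforms (28.6%, background 30%), 16 had fewer (25.4%, background 22.8%) and 29 had the same number. Each assembled transcript counts as an isoform here, also one that covers a piece of the gene or holds no intron. *Celf1* gained most, from 2 to 5, of which 1 and 3 held an intron. *Hnrnpa2b1*, *Hnrnph3* and *Mbnl1* each went from 2 to 4. *Srsf3* and *Hnrnpa3* went from 4 to 2, *Hnrnpl* and *Ptbp2* from 5 to 3, and *U2af1* and *Mbnl2* from 3 to 1. The 5 of *Hnrnpl* under Control SMO were pieces of 402 to 894 bases, where its longest annotated transcript has 2679. The part of such pieces in these differences was not tested. With the wider assignment *Hnrnpa2b1* went from 2 to 5, *Mbnl1* from 2 to 8 and *Mbnl2* from 3 to 4.

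The FPKM ratio went with this number. Genes with fewer isoforms had a median log2 ratio of -0.72 by FPKM and -0.33 by the exon-weighted value (n = 16), those with the same number -0.31 and -0.35 (n = 29), and those with more 0.16 and -0.16 (n = 18). Over all coding genes the medians by FPKM were -0.63, -0.18 and 0.58 in the same order, so this is not particular to splicing factor genes. As a description over genes of the same 2 libraries, Spearman's rho was taken between the isoform difference and the FPKM ratio minus the exon-weighted ratio. It was 0.46 for the splicing factor genes and 0.52 for coding genes. Only the summed FPKM counts each piece in full, so the measures lean toward a positive rho by construction. Of the 12 genes past a factor of 2 by FPKM but not by the exon-weighted value, 8 were under a factor of 1.5 or in the opposite direction by the latter.

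Isoforms were largely not the same ones. Of 131 intron chains (the ordered introns of a transcript) of splicing factor genes under Control SMO and 131 under LFPRLR SMO, 50 were found in both libraries, 38.2% of each. For coding genes the shares were 27.0% and 27.1%. Partial assembly also makes chains differ, and its part was not tested. Chains that fit inside an annotated coding transcript made up 108 of 146 transcripts under Control SMO (74.0%) and 98 of 146 under LFPRLR SMO (67.1%). Chains that joined annotated introns in a combination that no annotated transcript holds made up 16 (11%) and 25 (17.1%), where coding genes had 4.70% and 4.11%. Such chains included all 3 of *U2af1* and both of *Mbnl1* under Control SMO. Introns absent from the annotation were found in 3 transcripts under Control SMO, of *Hnrnpa2b1*, *Hnrnpa3* and *Hnrnpu*, and in 2 under LFPRLR SMO, both of *Hnrnph3*.

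**Figure D3:**
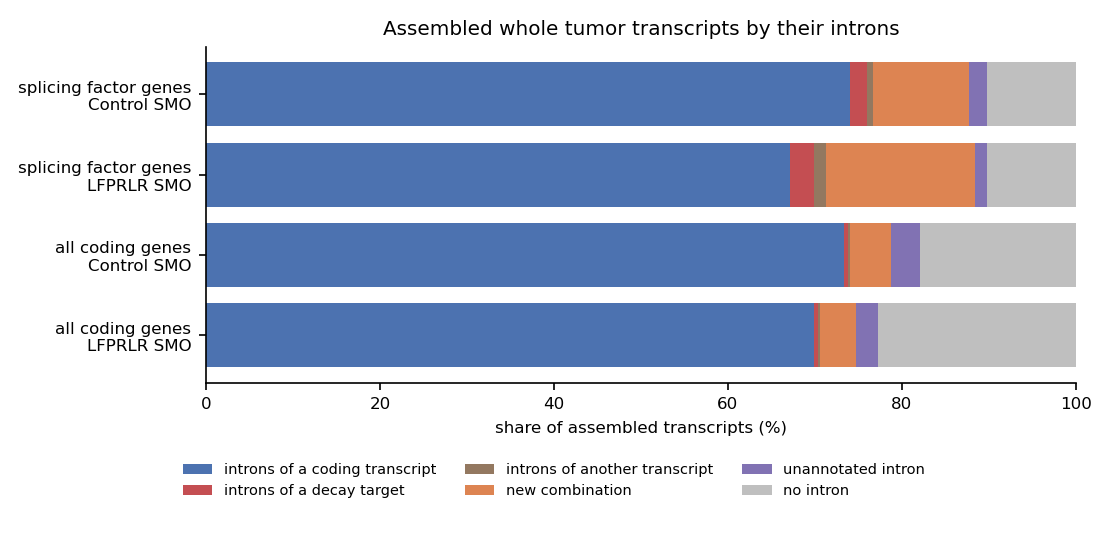
Share of assembled whole tumor transcripts (horizontal axis, %) by how their introns fit the annotation, for splicing factor genes (146 transcripts in each library) and for all coding genes (17950 under Control SMO and 18969 under LFPRLR SMO). New combinations of annotated introns take 11% and 17.1% of the splicing factor transcripts, against 4.70% and 4.11% of all.

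Chains found only in an annotated target of nonsense-mediated decay were few. With Control SMO these were a transcript of *Srsf3* at 7.09 FPKM, one of *Hnrnpdl* at 4.31 and one of *Ptbp2* at 2.75. With LFPRLR SMO they were 2 of *Celf2*, at 1.57 and 0.953, one of *Srsf6* at 2.57 and one of *Ptbp2* at 2.29. These were 2.05% and 2.74% of the transcripts of splicing factor genes, and 0.479% and 0.427% of those of coding genes. Of 14 annotated exons that occur only in decay targets, with evidence in both libraries, all 14 were skipped in both by exact introns, among them exons of *Srsf3*, *Srsf6*, *Srsf7*, *Srsf9*, *Srsf11*, *Hnrnpd*, *Hnrnpl*, *Snrpa* and *Snrpb*. Over coding genes, 596 of 611 such exons were skipped in both libraries. Covered bases were then read in place of exact introns, in transcripts with an intron on each side. By this rule 12 of 15 such exons of splicing factor genes were only skipped in both libraries, and 3 were covered in at least 1. Transcripts that begin or end beside the exon, which the rule leaves out, covered some of the 12 whole, under LFPRLR SMO alone. The 268-base exon of *Srsf6* was covered in this way by 6.72 FPKM and skipped by 3.03. For the 107-base and 71-base exons of *Hnrnpd* these values were 8.85 and 3.74, and for the 109-base exon of *Srsf11* 4.16 and 17.1. The others of the 12 had no such cover. The 456-base poison exon of *Srsf3* was skipped by 20.0 FPKM under Control SMO and 9.0 under LFPRLR SMO. It was also covered whole by other transcripts, which lack an exact intron on one or both sides. Under Control SMO this was the decay chain at 7.09 FPKM, which ends just beyond the exon, and under LFPRLR SMO a transcript of 3642 bases at 6.14 FPKM. The 460-base exon of *Srsf7* was covered by 6.10 FPKM and skipped by 3.69 under Control SMO, and covered by 5.72 and skipped by 1.61 under LFPRLR SMO. The 51-base exon of *Hnrnpu* was only skipped under Control SMO, by 14.8 FPKM, and only covered under LFPRLR SMO, by 10.4 FPKM. Coverage of this kind can also come from a retained intron, and exact introns leave it out. All 10 decay factors examined, among them *Upf1* at 12.7 and 12.0 FPKM, were listed under Control SMO, and 9 under LFPRLR SMO, with *Smg9* not listed there.

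Annotated cassette exons, those that some transcripts join and others skip, were read from exact introns on both sides. Only transcripts assigned with the basic GENCODE set were used. The wider assignment adds transcripts to some of these genes, and those were not read for exons. In 32 splicing factor genes, 71 such exons had evidence in both whole tumor libraries. Of these, 20 were only joined, 32 were only skipped, and 19 had both forms in at least 1 library (26.8%, against 11.9% of 5063 exons of coding genes). Splicing factor genes also had higher levels, with a median of 15.6 FPKM against 5.40 under Control SMO. The part of level in this share was not tested. Several of the 19 exons rest on the same transcripts, as those of *Mbnl1* and of *Esrp1* do. Both forms were seen in both libraries for 9, under Control SMO alone for 5 and under LFPRLR SMO alone for 5. No exon was joined in one library and skipped in the other, where 92 exons of coding genes were, and by covered bases 1 of 80 was, a 51-base exon of *Hnrnpu*.

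*Ptbp2* had the largest difference in the share of joining among exons with both forms in both libraries. Its 34-base exon, printed above, was joined by 1.45 FPKM and skipped by 2.75 FPKM under Control SMO (34.5% joined), and joined by 5.82 and skipped by 2.29 under LFPRLR SMO (71.8%). These rest on 1 transcript each, at mean read depths of 2.69, 5.10, 10.2 and 4.01 in turn, and the joined form under LFPRLR SMO was a fragment of 465 bases. The skipped form was in both libraries the annotated decay target. *Ptbp1*, which is known to cause skipping of this exon, was 1.41 times higher by the exon-weighted value under LFPRLR SMO. Its part in these shares was not tested. The like exon of *Ptbp1* itself was joined by all transcripts that reach it, at 13.2 and 18.7 FPKM. The 78-base coding exon of *Ptbp1* was joined at 43.9% under Control SMO and 30.6% under LFPRLR SMO, and the same pair of annotated transcripts was found in both.

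The 54-base exon of *Mbnl1* was joined by 8.65 FPKM and skipped by 11.3 under Control SMO (43.3%), and joined by 11.7 and skipped by 5.64 under LFPRLR SMO (67.5%). The like exon of *Mbnl2* went the other way, joined by 3.76 and skipped by 5.22 under Control SMO (41.9%) and only skipped, by 9.55 FPKM, under LFPRLR SMO. Mean read depths behind these values were between 4.70 and 20.4. Under LFPRLR SMO the shares rest on 4 transcripts of *Mbnl1* and 1 of *Mbnl2*. With the wider assignment there were 8, at 70.1 FPKM in all, and 4, at 17.6 FPKM, so much of the FPKM is left out of these shares. A 36-base coding exon of *Mbnl1* was only joined under Control SMO and joined at 54% under LFPRLR SMO.

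*U2af1* used the pair of 67-base exons in 3 ways under Control SMO. The downstream exon was in a transcript of 774 bases at 4.37 FPKM, the upstream exon in another of 774 bases at 2.29, and both together in a transcript of 841 bases at 1.36, at a mean read depth of 2.60. With LFPRLR SMO the single transcript, at 5.16 FPKM, held the downstream exon. The upstream exon was therefore seen in the Control SMO library alone, and at these depths its absence from the other is not shown.

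Of the 7 hnRNP exons with both forms in at least 1 library, 3 were joined to a like extent in both. The 141-base exon of *Hnrnpab* was joined at 35.5% under Control SMO and 33.5% under LFPRLR SMO, the 26-base exon of *Hnrnpc* at 52.7% and 51.9%, and the 147-base exon of *Hnrnpd* at 85.7% and 88.9%. A 57-base exon of *Hnrnpd* went from 26.3% to 62.6%, but the most abundant *Hnrnpd* transcript under LFPRLR SMO, of 874 bases at 8.85 FPKM, does not reach it. *Hnrnpa2b1* had its 120-base exon joined by all transcripts under Control SMO and at 88.0% under LFPRLR SMO. The latter share is drawn from transcripts of 54.0 FPKM in all, where the wider assignment had 101. *Hnrnpr* had a 169-base exon and a 166-base form of it, which were joined at 62.9% and 55.4% under Control SMO and only skipped, by 4.84 FPKM, under LFPRLR SMO. A fragment of 806 bases at 8.11 FPKM under LFPRLR SMO begins just upstream of this exon with no intron before it, and counts on neither side. Exons of *Esrp1*, of 110 and 151 bases, went from only joined to 27.2%, on a joined transcript of 0.763 FPKM at a mean read depth of 1.34. *Rbfox2* had a 40-base exon at 67.5% and then only joined, and a 93-base exon only joined and then at 55.1%. The 67.5% rests on a joined and a skipped transcript at mean read depths of 4.27 and 2.06. The skipped form of the 93-base exon was a transcript of 1332 bases at a mean read depth of 6.99.

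**Figure D4:**
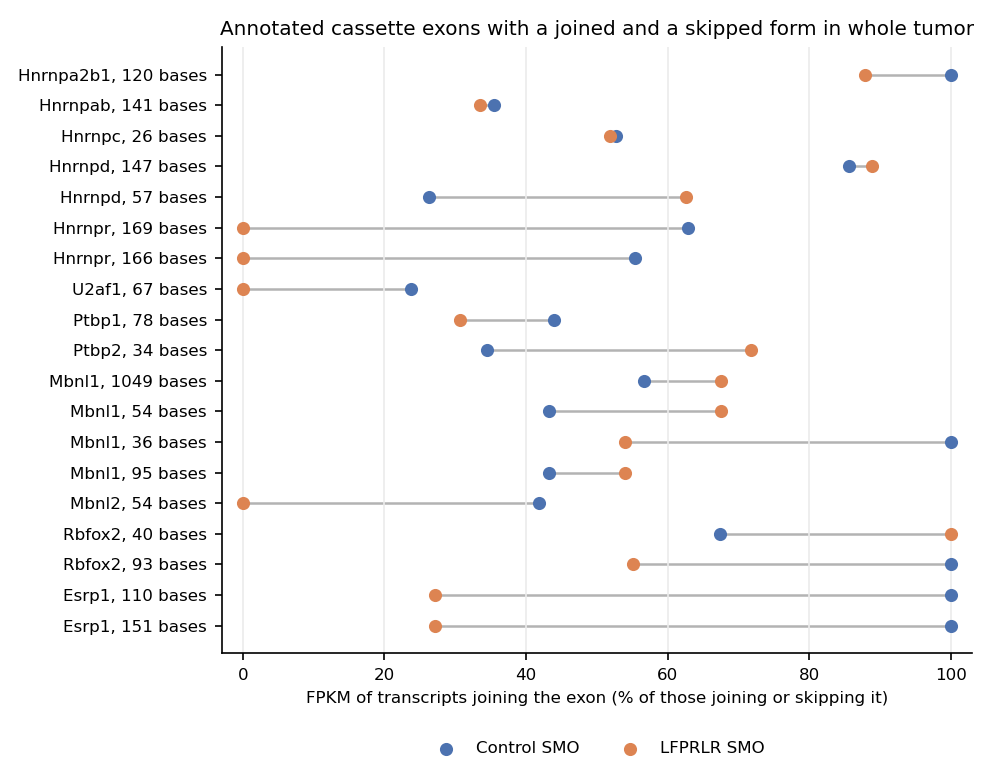
Share of FPKM in transcripts that join an annotated cassette exon, of those that join or skip it (horizontal axis, %), under Control SMO (blue) and LFPRLR SMO (orange) in whole tumor, for the 19 exons with both forms in at least 1 library. *Hnrnpab*, *Hnrnpc* and the 147-base exon of *Hnrnpd* lie close together, while the 34-base exon of *Ptbp2* moves from 34.5% to 71.8%, each from 1 library with no replicate.

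In the tumor Treg libraries no difference between treatments can be read, since all 4838 transcripts under the Control SMO label equal the 4838 under the LFPRLR SMO label. They were taken as 1 set of values, made by another program than for whole tumor. Its markers go against its label, since 0 of 10 T cell and 0 of 5 Treg markers were above 0, *Foxp3* and *Cd3e* included. All 10 monocyte and macrophage markers were above 0, as were 6 of 10 4T1 epithelial and 3 of 5 fibroblast markers. The library is therefore called by its label only. It held 46 of the 72 splicing factor genes above 0 (63.9%), where 14.3% of annotated coding genes were above 0. Their median was 3.50 FPKM, against 3.28 over the coding genes above 0. At 1 FPKM the mean read depth was 0.947.

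The highest were all hnRNP genes, with *Hnrnpa1* at 14.7 FPKM, *Hnrnpul1* at 13.4, *Hnrnpm* at 11.8, *Hnrnpll* at 11.4 and *Hnrnpa2b1* at 11.1. By the exon-weighted value *Hnrnpa1*, at 11.9, and *Hnrnpa2b1*, at 10.6, stood above the others, with *Snrpb* at 8.74 and *Srsf5* at 8.53 next. *Hnrnpll*, which T cells use to switch the exons of *Ptprc*, was at 1.32 by that measure. *Hnrnpc*, highest by FPKM in whole tumor under Control SMO, was at 1.30 FPKM. Among those not above 0 were the Rbfox and Esrp genes, *Ptbp2*, *U2af1* and *Hnrnpa0*, which was listed at 0. Of the 73 transcripts, 66 fit an annotated coding transcript. Over all genes this library listed 235 transcripts at 0, so a listed transcript with annotated introns need not rest on reads. The part of the annotation in these fits was not tested. *Ptbp1* had both its forms, with the 78-base exon joined at 72.3%. *Srsf3* had its poison exon joined at 18.0%, by 1 transcript, the annotated decay target, at a mean read depth of 0.474. Among splicing factor genes, no other exon known from decay targets alone was joined by exact introns in any of the libraries. At this depth the joining of the *Srsf3* exon is not shown. The single *Mbnl1* transcript begins inside the 54-base exon and that of *Mbnl2* ends before it, so neither exon could be read as joined or skipped.

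**Figure D5:**
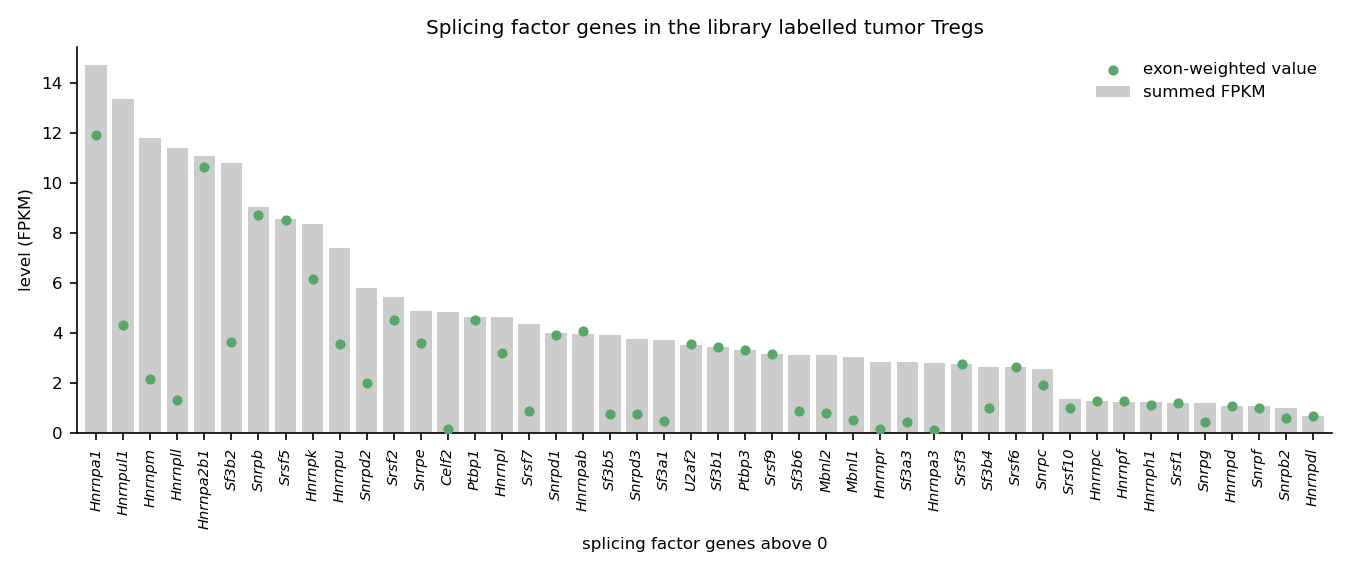
Level of the 46 splicing factor genes above 0 in the library labelled tumor Tregs, as summed FPKM (grey bars) and exon-weighted value (green points), in order of FPKM. *Hnrnpa1* leads both measures at 14.7 and 11.9, and the points fall far below the bars for genes listed as fragments, such as *Hnrnpll*.

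Other genes of splicing were examined in the same way, from a list of 123 symbols for small nuclear RNP proteins, helicases, SR-related proteins and other RNA-binding proteins, of which 122 matched a gene. In whole tumor 119 were listed in each library. By FPKM, 4 of 121 passed a factor of 2 upward and 21 downward, with a median log2 ratio of -0.17. The background over coding genes was 16.3% higher and 17.4% lower. By the exon-weighted value 0 of 118 were higher and 8 were lower, with a median of -0.22 and a background of 3.04% and 8.41%. The highest were *Pcbp2*, a poly(C)-binding protein, at 137 FPKM under Control SMO and 64.0 under LFPRLR SMO, the helicase *Ddx5* at 87.7 and 50.4, the SR-related *Tra2a* at 52.0 and 79.9, the helicase *Dhx9* at 72.6 and 30.4, and the nuclear matrix protein *Matr3* at 58.5 and 40.8. By the exon-weighted value the direction turned for 3 of them, with *Tra2a* at 25.8 and 21.9, *Dhx9* at 14.1 and 15.2 and *Matr3* at 10.2 and 10.8. *Pcbp2*, at 20.6 and 12.5, and *Ddx5*, at 60.4 and 46.2, were lower by this measure too. In the library labelled tumor Tregs, 56 of these genes were above 0, and none of the decay factors was.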

How the data were processed

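There were 4 RNAseq libraries, from whole tumor and from sorted tumor Tregs, with 1 library of 6 pooled mice per group. The authors depleted rRNA. The submitters' processing notes list Cufflinks, in a version not given in the sources used here, Cuffdiff 2.0.2, StringTie 1.2.3 and HISAT2 2.0.4, with the build mm10. The deposited whole tumor values are Cufflinks transcripts with an FPKM and no gene name. The deposited tumor Treg values are StringTie transcripts with an FPKM and a TPM. No read counts were used here, and the depth of a library is known only as mean read depth per FPKM. Whole tumor and tumor Treg values were normalized separately, so their levels are not compared by a ratio.

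Each transcript was assigned to the gene of the GENCODE M21 basic set (GRCm38) with a common intron, or otherwise with 50% or more of the transcript's exon bases, and tumor Treg transcripts also by symbol. Values of at least 1 in at least 1 library were counted, with a pseudocount of 0.1 and a factor of 2. Isoform classes and cassette exons were read against all transcripts of GENCODE M21, for the assembled transcripts assigned with the basic set. Per family the 2 highest members were named, with members past the factor, listed in 1 library only, or with the largest isoform differences. Members and lists, markers included, were chosen with earlier results of these data known. The assignment was tested on annotated transcripts cut short, and the reading of exons on annotated transcripts. The counting past the factor was tested on simulated ratios with an assumed noise. Genes assembled in several pieces were not modelled in these tests. Python 3.11.15, numpy 2.4.6, scipy 1.17.1 and matplotlib 3.10.9 were used.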

Additional observations from a re-analysis of the deposited data

How the results depend on the processing

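The median log2 ratio of -0.27 for splicing factor genes in whole tumor stayed negative under every alternative but TPM over all listed transcripts, where it was 4.28, since TPM adds 4.55 to every gene in these libraries. It was -0.17 when centred on the median gene, -0.41 with the most abundant transcript only and -0.13 with TPM over transcripts of at least 300 bases. The exon-weighted value centred on the median gene, chosen after seeing the data, gave -0.087. The counts of genes higher and lower by the factor, 3 and 11, became 0 and 2 with the exon-weighted value, centred or not, 63 and 0 with TPM over all listed transcripts, and 0 and 3 with a factor of 3. When all annotated transcripts were used for the assignment, also chosen after seeing the data, 6 were higher and 11 lower, with *Hnrnpa2b1* at 49.7 and 101 FPKM, *Mbnl1* at 20.0 and 70.1, *Mbnl2* at 14.1 and 17.6, *Hnrnpll* at 6.25 and 7.58, *Srsf11* at 29.3 and 21.3 and *Rbfox3* not listed and at 2.21, under Control SMO and LFPRLR SMO in turn, which turned the direction for *Mbnl1*, *Mbnl2*, *Hnrnpll* and *Srsf11*. The counts of isoforms and of cassette exons both joined and skipped over the whole tumor libraries, 19 by exact introns and 25 by covered bases, stayed within a factor of 1.5. Of the 25, 24 had both forms within a library. No paired analysis was possible because each group was 1 library, and for the same reason no replicate could be left out.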
